A study of Mus musculus with 3 samples.

Results

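A set of 10 imprinted genes was followed in neurons of the mouse heart: Nnat, Gnas, Peg3, Ndn, Snrpn, Cdkn1c, Dlk1, Igf2, H19 and Impact. The genes were chosen by symbol, with their levels in these libraries already known, and the cells they are described in were selected on measured counts of Snap25, Prph, Stmn2, Npy, Ddah1, Edn3, Ptger3 and cell type markers. All 10 had a row in each of the 3 matrices, which shared 30406 genes. Single cells came from atria of Baf53b-cre;lox-GFP mice, in which a Cre driven by the promoter of Baf53b (Actl6b), a subunit of a neuronal chromatin remodelling complex, switches on a green fluorescent protein; fluorescent cells were sorted and sequenced with a droplet 3′ kit. The mixed library came from pooled ganglia of mice aged 2 months, the anterior library from the anterior section at 3 months, and the posterior library from the posterior section at 4 months. Each was 1 library from 10 pooled hearts of both sexes, all of the same genotype and untreated, so the labels hold no mutant or treated group.

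An imprinted gene is transcribed mainly from the copy inherited from one parent, because methylation laid down in the germ line marks one parental copy, not always the silent one. Nnat (neuronatin, a small membrane protein of the endoplasmic reticulum), Peg3, Ndn, Snrpn, Dlk1, Igf2 and Impact are expressed from the paternal copy. Cdkn1c and H19 are expressed from the maternal copy, and Gnas gives several transcripts whose parental origin depends on the promoter and the tissue. Many imprinted genes are used in neurons, in adrenal chromaffin cells and in fetal growth. The counts here did not separate the parental copies, so imprinting itself was not measured.

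The upstream sequence is shown for a pair of members with opposite patterns, Nnat, higher in neurons than in glia, fibroblasts and macrophages, and Dlk1, near 0 in neurons and high in chromaffin-like cells. Both are the 250 bases before the RefSeq start on GRCm38.p6, on the plus strand, with CG dinucleotides, where methylation can sit, in capitals.
Nnat: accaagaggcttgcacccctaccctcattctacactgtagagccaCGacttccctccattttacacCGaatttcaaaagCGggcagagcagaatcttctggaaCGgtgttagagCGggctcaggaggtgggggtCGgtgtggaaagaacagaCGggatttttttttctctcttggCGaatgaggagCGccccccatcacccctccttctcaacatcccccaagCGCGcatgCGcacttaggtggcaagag
Dlk1: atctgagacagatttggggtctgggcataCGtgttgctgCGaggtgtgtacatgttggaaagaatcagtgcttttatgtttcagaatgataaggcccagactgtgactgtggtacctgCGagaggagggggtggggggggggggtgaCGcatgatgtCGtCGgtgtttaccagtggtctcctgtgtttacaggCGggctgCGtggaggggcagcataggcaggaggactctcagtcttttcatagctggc
The Nnat window, chr2:157559828-157560077, held 12 CG, and 33.5% of the 32851 RefSeq windows of this length held as many or more. The Dlk1 window, chr12:109452573-109452822, held 8 CG, as many as or fewer than 43.0% of windows. Windows were at hand for 7 of the 10 members and held 1 to 29 CG against a median of 6 over all windows. CG counts describe the letters and say nothing of methylation, which was not measured.

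On the same build, GENCODE vM21 places Nnat at chr2:157560078-157562522, within Blcap on the opposite strand. Gnas lies at chr2:174284320-174346744, with the antisense Nespas across it. The strand setting of the counting is not given in the sources used here, so counts of Nnat and Gnas may hold reads of these partners. Chromosome 7 holds 6 members. These are Peg3 at chr7:6703892-6730431, Snrpn at chr7:59982495-60140219, Ndn at chr7:62346569-62350262, H19 at chr7:142575529-142578143, Igf2 at chr7:142650766-142666816 and Cdkn1c at chr7:143458339-143461050. Dlk1 lies at chr12:109452823-109463336 and Impact at chr18:12955852-12992950. Snurf overlaps Snrpn on the same strand and had 0 unique molecular identifiers (UMIs) wherever counted, so Snrpn counts may include it. Gm49394, which overlaps Igf2 on the same strand, is a feature only of the mixed matrix, and reads shared by both could have been dropped there.

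The matrices held 2829, 2256 and 3276 barcodes in the mixed, anterior and posterior libraries. Neurons were barcodes of at least 10000 UMIs with Snap25, Prph and Stmn2 detected, 1998, 1315 and 1447 of them, with median depths of 57062.5, 39854 and 57151 UMIs. Of 10 neuronal markers, Hand2 was found in 95.7% to 99.4% and Chat, the acetylcholine-synthesising enzyme, in 62.8% to 82.7% of neurons. Just outside the depth limit, 75, 172 and 151 barcodes with the 3 genes had 5000 to 10000 UMIs, and just inside it 112, 208 and 164 neurons had fewer than 20000. Pairs of libraries shared 2, 3 and 3 barcodes. Other cells were gated on marker lists and were shallow, with median depths of 2142 to 4105 UMIs in glia. Markers of another class were present in 425, 201 and 235 neurons.

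In neurons Gnas, which encodes the stimulatory G protein alpha subunit that links receptors to adenylyl cyclase, was the highest member. It had 102, 77 and 66.4 UMIs per 10000 in the mixed, anterior and posterior libraries. Snrpn, a spliceosome core protein of neurons, followed at 9.34, 9.32 and 9.55, and Ndn (necdin, a growth-restraining protein of post-mitotic neurons) at 6.80, 4.69 and 4.36. The 3 libraries of Gnas lay above all of Snrpn and those of Snrpn above all of Ndn, so this order held in every library.

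Peg3, a zinc finger protein, had 1.96, 2.74 and 3.03 UMIs per 10000 in neurons. Nnat had 2.53, 2.17 and 1.59, and Impact, a regulator of the translation kinase Gcn2, had 1.82, 1.45 and 1.71. Every Peg3 library lay above every Impact library. The library range of Nnat overlapped those of Peg3 and Impact, and Nnat is not placed in an order with them. A 3′ kit counts transcript ends, so levels were compared between genes with no correction for length. Ndn and Gnas were higher in the mixed library than in both others, while Peg3 was lowest there, and library, region and age cannot be told apart in these differences.

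The last 4 members were scarce or undetectable in neurons. Cdkn1c, an inhibitor of cyclin-dependent kinases, had 106, 59 and 105 UMIs over all neurons of a library, or 0.0091, 0.0114 and 0.0130 per 10000. Igf2, a fetal growth factor, had 0, 0 and 3 UMIs and H19, a noncoding RNA of the same domain, 1, 1 and 0. Over all 4760 neurons a count of 0 would allow up to 0.00012 UMIs per 10000, and such floors and the intervals below cover counting error only.

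**Figure D1:**
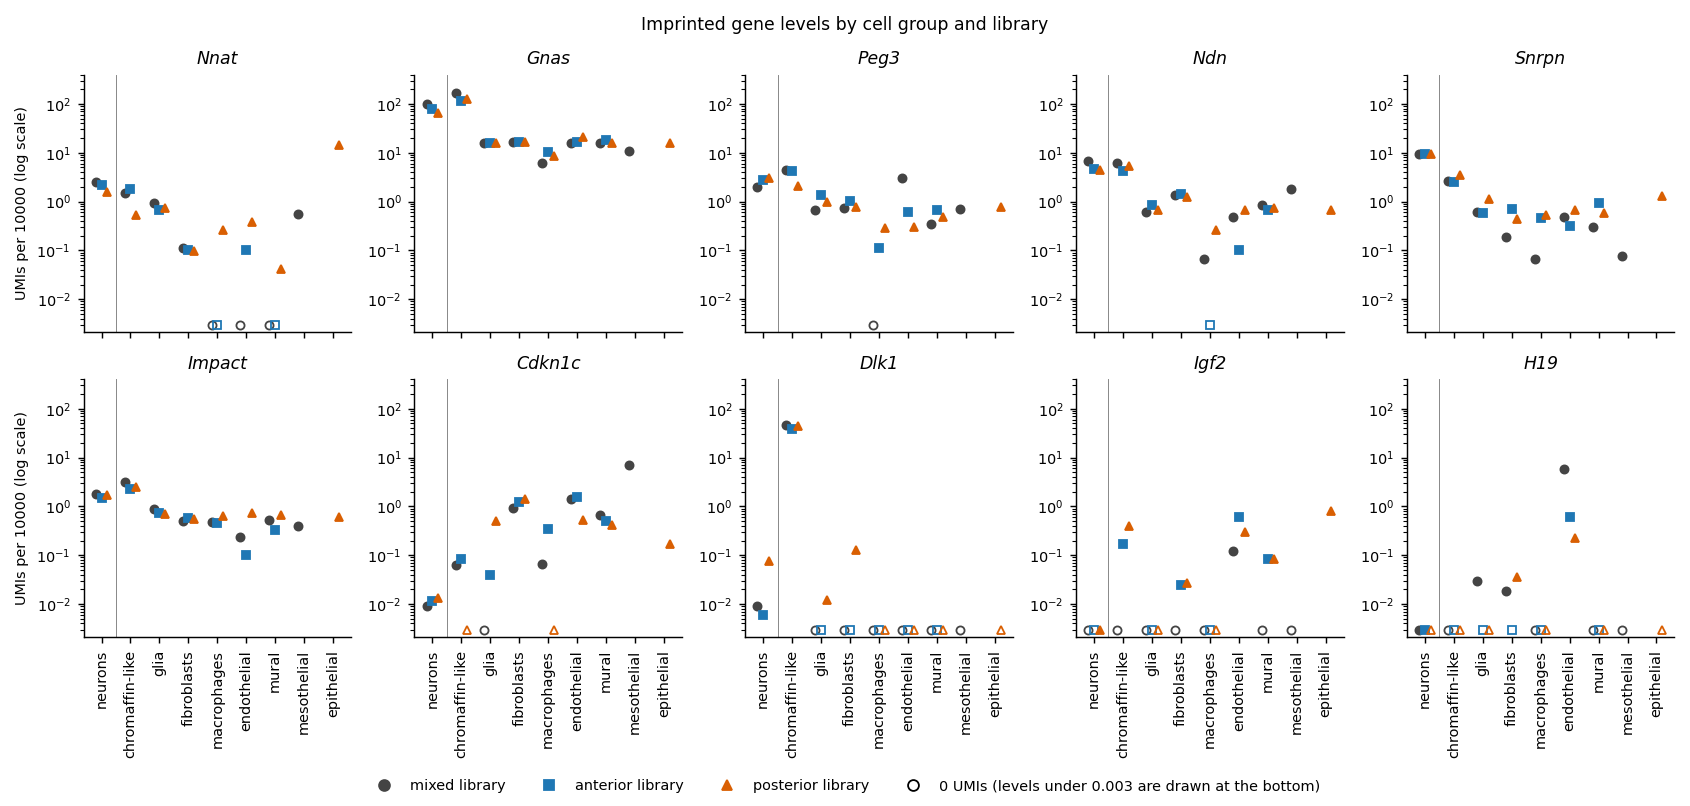
Level of each member (UMIs per 10000, log scale) by cell group, neurons first, with 1 point per library for groups of at least 10 cells. Gnas, Snrpn, Ndn, Peg3, Nnat and Impact are higher in neurons than in glia, fibroblasts and macrophages. Gnas and Impact are higher still in chromaffin-like cells, where Dlk1 is high as well. Cdkn1c is lower in neurons than in fibroblasts, endothelial and mesothelial cells.

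Depth differs between cells, so detection was compared after drawing each neuron down to 10000 UMIs. Gnas then had a UMI in 100% of neurons of each library. Nnat had one in 68.7%, 65.4% and 54.0% of mixed, anterior and posterior neurons, and 6 members, Nnat, Gnas, Peg3, Ndn, Snrpn and Impact, had one in at least 50% in every library. At 2000 UMIs, the depth that other cells allow, Nnat was found in 33.5%, 28.8% and 21.7% of neurons against 13.2%, 10.6% and 11.2% of glia, and Snrpn in 81.5%, 79.7% and 74.8% against 7.4%, 8.5% and 24.5%. Free RNA can give such UMIs: Npy, a neuronal peptide that glia should lack, was found in 20.6%, 29.8% and 32.2% of glia at this depth. Npy is far more abundant than Nnat in neurons, so the shares alone do not separate free RNA from expression in glia, and levels relative to neurons are given below. This thinning left out 23, 86 and 31 glia and no neurons.

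The members differed in how evenly neurons carried them. With a Poisson draw of the same mean, 7.51%, 10.7% and 20.4% of neurons thinned to 10000 UMIs would have had no Nnat, whereas 31.3%, 34.6% and 46.0% of mixed, anterior and posterior neurons had none. The variance of Nnat was 4.02, 3.68 and 5.97 times its mean. Impact was close to even, with a variance of 1.08, 1.14 and 1.19 times its mean and 16.7%, 24.4% and 22.3% of neurons without a UMI against 15.5%, 22.4% and 18.1% in a Poisson draw. Without thinning, the median neuron of the mixed library had 1.63 Nnat UMIs per 10000 and the highest 24.0, and the posterior library reached 56.6. Gnas spanned 34.1 to 200 UMIs per 10000 between the 5th and 95th percentiles of mixed neurons.

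**Figure D2:**
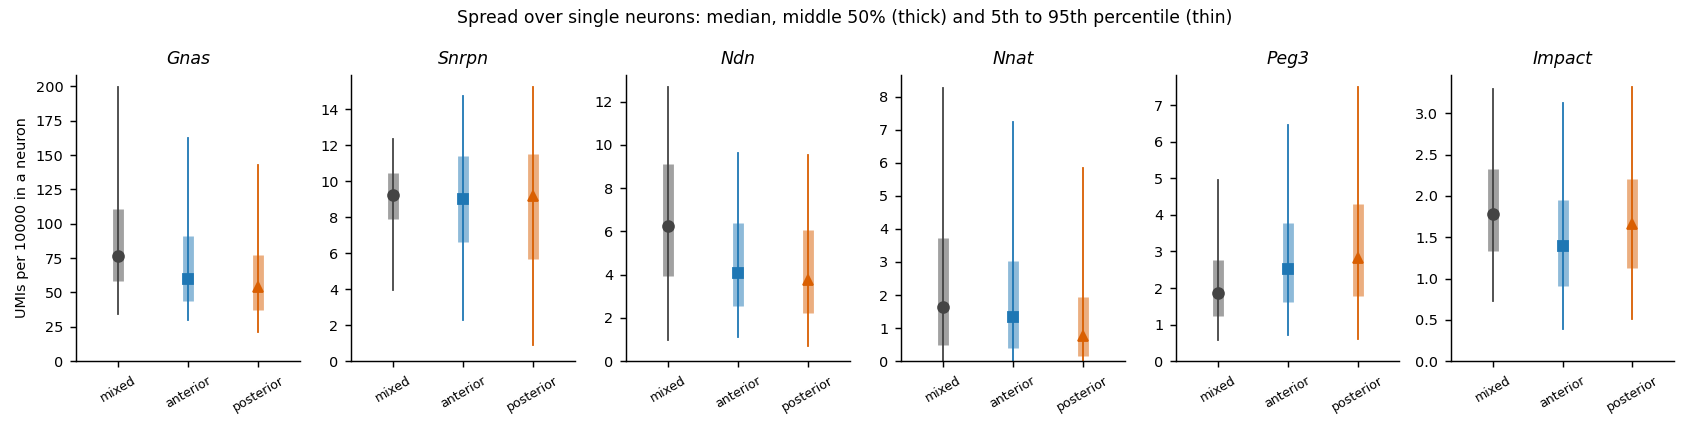
UMIs per 10000 in single neurons of each library, shown as the median (symbol), the middle 50% (thick bar) and the 5th to 95th percentile (thin bar). Nnat spreads from 0 upward, while Snrpn medians stay between 9.03 and 9.22 in the 3 libraries.

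Neurons were set against glia, fibroblasts and macrophages with counts summed by library and edgeR's quasi-likelihood test, with the library as a block. Against satellite glia or Schwann cells, which wrap ganglion neurons, 7 of the 8 members that passed the count filter were higher in neurons and 1 was lower, at an adjusted p (Benjamini-Hochberg over 13665 genes) under 0.05. The background is high here, since 60.3% of all genes tested passed, 33.6% higher and 26.8% lower in neurons. The members' median log2 fold change was 2.20, against 0.20 over all genes tested. H19 and Igf2 did not pass the filter.

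Gnas had 15.8, 15.8 and 16.2 UMIs per 10000 in glia of the mixed, anterior and posterior libraries, far below its neuron levels above, and its log2 fold change was 2.67 ± 0.25 (SE; adjusted p = 6.9e-26, edgeR). Snrpn had 0.623, 0.58 and 1.13 in glia and the largest called fold of the members, log2 3.92 ± 0.26 (adjusted p = 1.5e-49, edgeR). Ndn followed, with 0.623, 0.85 and 0.661 in glia and log2 3.16 ± 0.25. In none of these did neuron and glia libraries overlap. Dlk1, the seventh call (log2 2.94 ± 1.18, adjusted p = 0.022, edgeR), rested on 1 glial UMI and on the posterior library. Its log2 fold change was 0.039, and no longer passed, without neurons of little Prph, described below. The call was also lost without the block (log2 2.6), in DESeq2 (1.91) and under the 1/10 limit on neuron genes (2.65). Without the posterior library Dlk1 had 0 UMIs in glia, so no fold is given.

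Nnat had 0.919, 0.676 and 0.734 UMIs per 10000 in glia and rose in neurons by log2 1.73 ± 0.23 (adjusted p = 5.0e-13, edgeR). Peg3 (log2 1.67 ± 0.23) and Impact (1.43 ± 0.23) were higher in all 3 libraries as well. The glial level was 36.4%, 31.1% and 46.2% of the neuronal one for Nnat and 48.8%, 50.5% and 41.5% for Impact. For Npy it was 3.82%, 5.78% and 7.03%, below Nnat and Impact in each library. For Prph, an intermediate filament of peripheral neurons, it was 2.63%, 6.85% and 6.89%. Glia were kept only with Snap25, Prph and Stmn2 together under 1/4 of the neurons' median. The Prph share was therefore bounded by the selection, which may have lowered that of Npy too. Hand2, a regulator of autonomic neurons, was also above the shares of Npy and Prph. It had 3.39 to 4.17 UMIs per 10000 in neurons against 1.39 to 1.60 in glia, and its part in the result was not tested.

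Against fibroblasts, 6 of 8 members tested were higher in neurons, 1 was lower and 1 did not pass, where 55.4% of all 13886 genes passed, 31.7% higher and 23.8% lower. Nnat had 0.113, 0.1 and 0.0994 UMIs per 10000 in fibroblasts of the 3 libraries and a log2 fold change of 4.41 ± 0.28 (adjusted p = 7.3e-12, edgeR). Snrpn was higher by log2 4.64 ± 0.38. The other 4 risers ranged from 1.76 (Peg3) to 2.44 (Gnas), Ndn at 2.10 and Impact at 1.77 between them, and the members' median was 1.93 against 0.24 over all genes.

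Against macrophages, 6 of 8 members tested were higher, 1 was lower and 1 did not pass, where 38.7% of all 13513 genes passed, 23.9% higher and 14.8% lower. The macrophage sums were small, 149023, 88303 and 349678 UMIs, and Nnat, Peg3 and Ndn had 0 UMIs in at least 1 macrophage library. Ndn had log2 5.21 ± 0.48, Snrpn 4.84 ± 0.40, Peg3 4.14 ± 0.52, Nnat 4.00 ± 0.54, Gnas 3.39 ± 0.23 and Impact 1.73 ± 0.44. Dlk1 had 0 UMIs in all macrophages, so no fold is given for it. With Dlk1 set at the 3-count floor the members' median was 3.70, and 4.07 as fitted, against 0.68 over all genes.

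Cdkn1c ran the other way. It was 0.943, 1.26 and 1.40 UMIs per 10000 in fibroblasts of the 3 libraries, above every neuron library, and fell by 6.59 on the log2 scale in neurons (SE 0.25, adjusted p = 9.8e-16, edgeR). In glia Cdkn1c had 0, 2 and 42 UMIs, and 41 of those 42 lay in 1 posterior cell. The neuron to glia log2 fold change of Cdkn1c was -3.64 ± 0.53 with the posterior library and -0.74 without it, where it no longer passed. The call against macrophages (log2 -2.73 ± 1.16, adjusted p = 0.0496, edgeR) rested on 4 macrophage UMIs. It was -0.92 without the anterior and -2.83 without the mixed library, and passed in neither, nor in DESeq2 (-2.6).

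**Figure D3:**
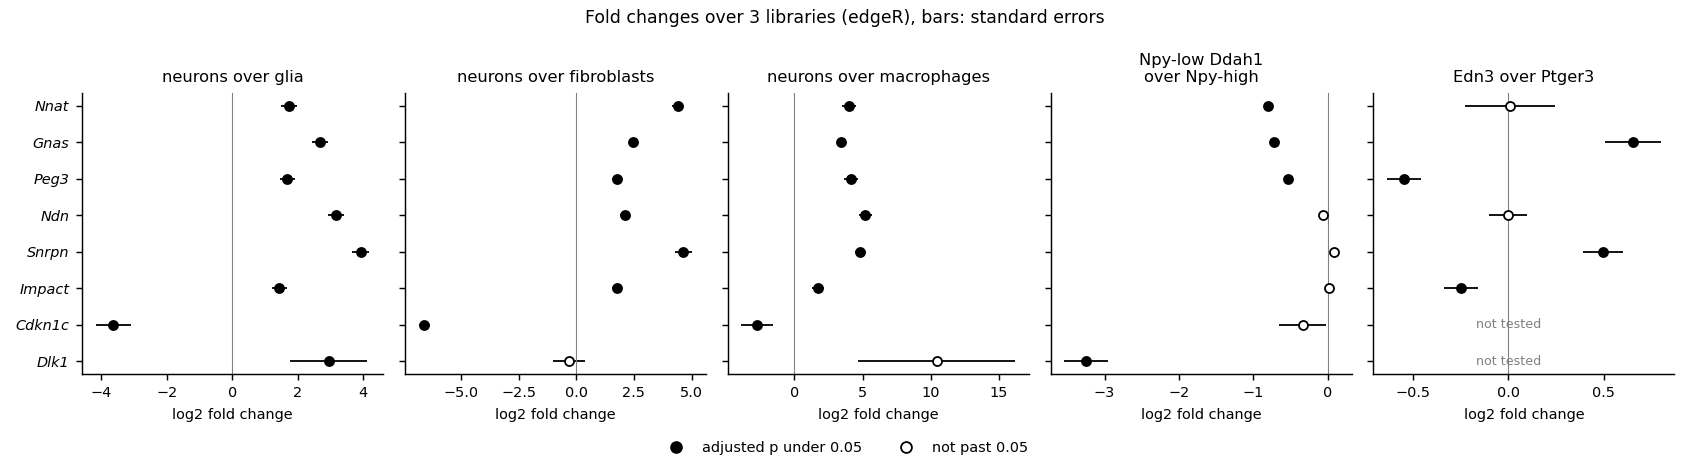
edgeR log2 fold changes (points) with standard errors (bars) for the members tested in each comparison, on separate scales; filled points passed an adjusted p of 0.05. Snrpn, Ndn, Gnas, Nnat, Peg3 and Impact lie right of 0 in the 3 comparisons of neurons with other cells, and Nnat, Gnas, Peg3 and Dlk1 lie left of 0 for Npy-low Ddah1 neurons. The Dlk1 point against macrophages is a fitted value of 10.4 with 0 macrophage UMIs and is not to be read as a fold.

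Dlk1, a transmembrane Notch ligand relative found in chromaffin and other neuroendocrine cells, was concentrated in a small group. Chromaffin-like cells were barcodes gated on Chga, Chgb, Th, Dbh, Ddc, Slc18a1, Slc18a2 and Pnmt with little Prph, 21, 19 and 14 of them. Pnmt, which makes adrenaline, was at 0 in all of them, and Rgs5, a pericyte marker, was the sole gene of the smooth muscle list found, at 91.6, 64.8 and 99.2 UMIs per 10000. The 10 neuronal markers summed to 26.0, 35.2 and 37.4 UMIs per 10000 there, against 82.4, 74.4 and 74.7 in neurons. Dlk1 had 46.6, 38.6 and 44.7 UMIs per 10000 there, found in 20 of 21, 14 of 19 and 11 of 14 cells of the mixed, anterior and posterior libraries. In neurons it had 0.0091, 0.00597 and 0.0769 and was found in 9, 3 and 28 neurons.

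Most of the neuronal Dlk1 of the posterior and mixed libraries, but not of the anterior one, lay in barcodes poor in Prph. In the posterior library, 579 of 620 Dlk1 UMIs fell in 10 barcodes whose Prph was under 1/4 of the library's median. In the mixed library 65 of 106 fell in 1 such barcode, and in the anterior library 0 of 31 did. Dlk1 was found in 1 of 40 mixed, 0 of 13 anterior and 10 of 75 posterior neurons poor in Prph. The posterior neuron with the most Dlk1, 143 UMIs, held 43 Chga, 15 Th, 8 Slc18a1 and 3 Prph UMIs, and 0 of Dbh and Pnmt. The remaining neurons had 41, 31 and 41 Dlk1 UMIs, or 0.00354, 0.00599 and 0.00517 per 10000, with 8, 3 and 18 neurons carrying one. These values were looked up after the Dlk1 level of neurons had been seen.

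The comparison of neurons with chromaffin-like cells was also added afterwards. Dlk1 was lower in neurons in 3 of 3 libraries, with a log2 fold change of -10.87 ± 1.53 that did not pass (adjusted p = 0.074, edgeR). It passed without the Prph-poor neurons (-12.71), without the posterior library (-11.98) and in DESeq2 (-11.18). Of the 8 members tested, 3 were higher in neurons, 1 was lower and 4 did not pass, where 23.5% of all 13049 genes passed, 16.0% higher and 7.48% lower. Impact, at 3.11, 2.33 and 2.52 UMIs per 10000 in chromaffin-like cells, was lower in neurons in 3 of 3 libraries but did not pass. Peg3, at 4.36, 4.15 and 2.12, was lower in neurons in 2 of 3 and did not pass either. Snrpn was higher, by log2 2.16 ± 0.19, with 2.62, 2.57 and 3.45 UMIs per 10000 in chromaffin-like cells, and Nnat by 1.13 ± 0.26, with 1.49, 1.83 and 0.531. Ndn was called higher by 0.47 ± 0.18 (adjusted p = 0.043, edgeR) but in 2 of 3 libraries, and was lost without the mixed (0.37) and without the anterior library (0.45). The level ratios, neurons over chromaffin-like cells, were 0.821 to 1.13 for Ndn and 2.77 to 3.62 for Snrpn, all below the fitted folds. Fitted folds carry edgeR's TMM scaling factors, which levels per 10000 do not. The median log2 fold change over all genes tested was 0.32, and the part of scaling in these calls was not tested. Gnas was lower, with 171, 117 and 128 UMIs per 10000 in chromaffin-like cells and a log2 fold change of -0.34 ± 0.12 (adjusted p = 0.016, edgeR), a call lost in DESeq2 (-0.51) and without the mixed (-0.37), anterior (-0.37) or posterior library (-0.22). The level ratios of Gnas were 0.517 to 0.655, a larger fall than the fitted one in each library.

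**Figure D4:**
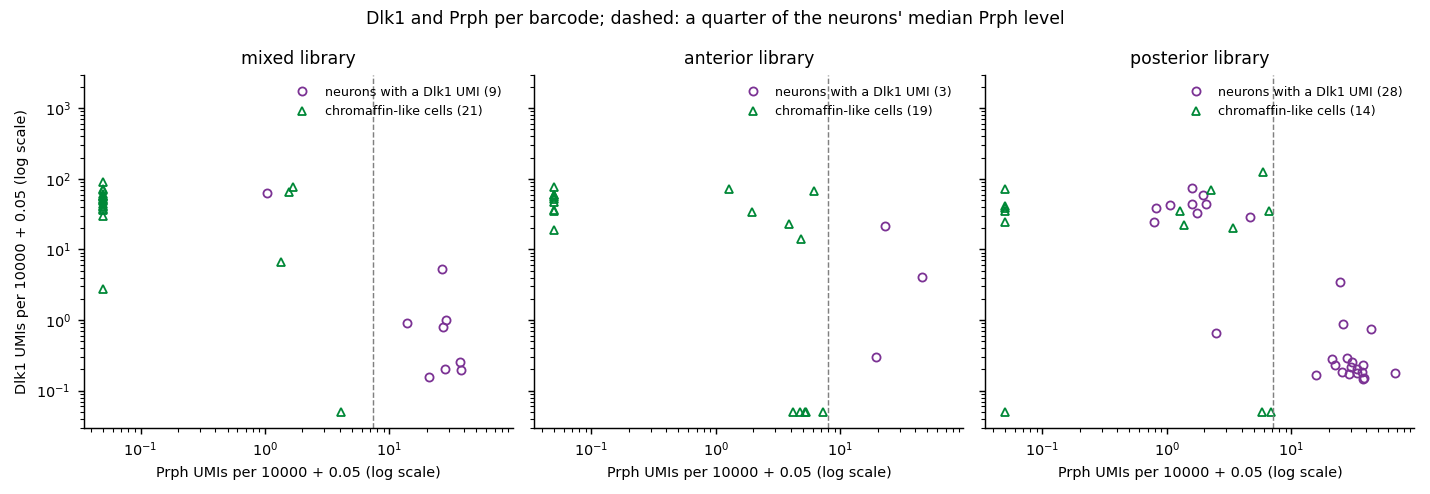
Dlk1 against Prph, both as UMIs per 10000 plus 0.05 on log scales, for neurons with a Dlk1 UMI and for all chromaffin-like cells of each library; the dashed line is 1/4 of the neurons' median Prph. In the posterior library 10 of 28 such neurons lie left of the line, 9 of them with at least 10 Dlk1 UMIs.

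Neurons were then divided by Npy and by Ddah1, which breaks down asymmetric dimethylarginine, an inhibitor of nitric oxide synthesis. Npy-low Ddah1 neurons (Npy under 4 and Ddah1 at least 1 UMI per 10000) numbered 336, 104 and 437 in the mixed, anterior and posterior libraries, and Npy-high neurons (Npy at least 4, Ddah1 under 1) 1556, 1128 and 814. Nnat had 1.56, 1.28 and 1.12 UMIs per 10000 in Npy-low Ddah1 neurons, against 2.78, 2.30 and 1.79 in Npy-high neurons. Gnas had 70.0, 47.5 and 45.5 in Npy-low Ddah1 neurons, against 108, 79.6 and 76.2. For both genes every Npy-low Ddah1 library lay below every Npy-high library.

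In Npy-low Ddah1 neurons 4 of 8 members tested fell, 0 rose and 4 did not pass, where 32.4% of all 13712 genes passed, 15.9% higher and 16.5% lower. Nnat fell by 0.80 (SE 0.058, adjusted p = 8.9e-17), Gnas by 0.72 (SE 0.052, 8.4e-17) and Peg3 by 0.53 on the log2 scale (SE 0.055, 1.2e-11, edgeR), each in 3 of 3 libraries. Peg3 had 1.46, 2.07 and 2.36 UMIs per 10000 in Npy-low Ddah1 neurons, against 2.08, 2.84 and 3.53 in Npy-high neurons, ranges that overlapped across libraries but not within one. Median depths were alike, 59223.5, 41235 and 58921 UMIs against 56639, 39665 and 57247.

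Snrpn had 9.73, 9.50 and 10.4 UMIs per 10000 in Npy-low Ddah1 neurons, against 9.29, 9.25 and 9.14 in Npy-high neurons, a log2 fold change of 0.08 ± 0.05 that did not pass (adjusted p = 0.24, edgeR) but did without the mixed library (0.11). Ndn (log2 -0.07 ± 0.05) and Impact (0.02 ± 0.06) did not pass either. The fourth call, Dlk1, at log2 -3.25 ± 0.29, had 0, 0 and 28 UMIs in Npy-low Ddah1 neurons against 105, 31 and 413 in Npy-high neurons. It turned to 0.21 once the Prph-poor neurons were left out. Without the library as a block, edgeR called 0 of the 8 members (3 at an unadjusted p under 0.05), and 847 genes passed over all, against 4449 with it. DESeq2 with the block called 4 members, where 2724 of 13712 genes passed.

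**Figure D5:**
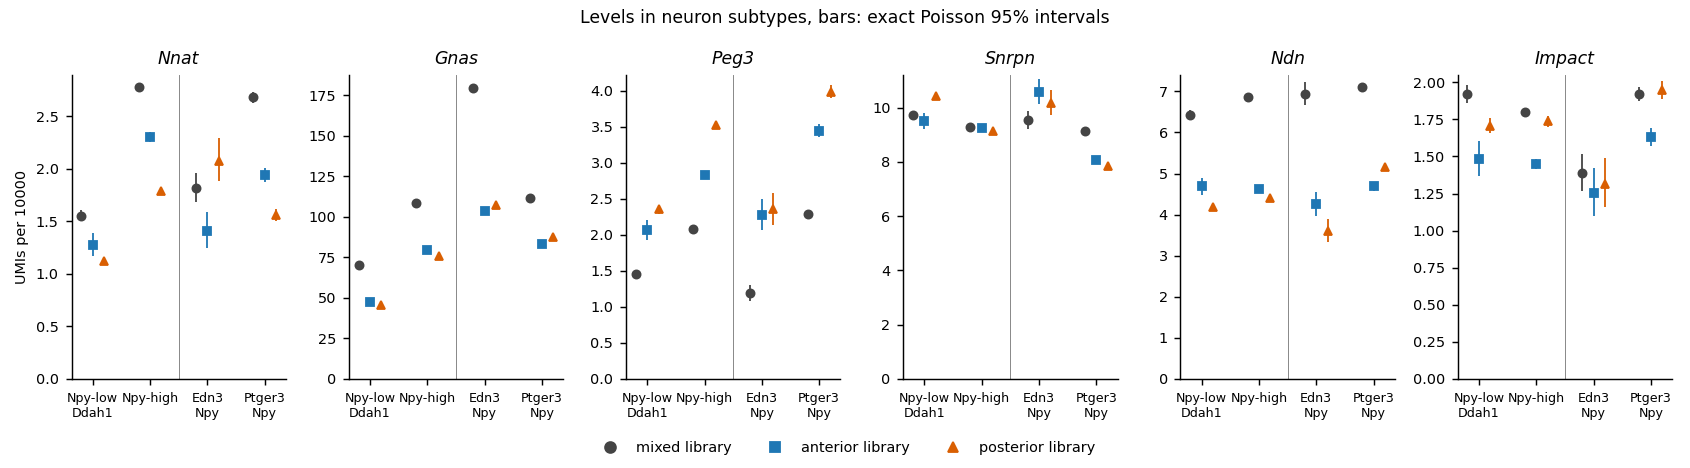
Level of 6 members (UMIs per 10000) in Npy-low Ddah1, Npy-high, Edn3 Npy and Ptger3 Npy neurons of each library, with exact Poisson 95% intervals that cover counting error only. Nnat and Gnas are lower in Npy-low Ddah1 than in Npy-high neurons of each library, and among these 4 groups Gnas is highest in Edn3 neurons.

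Among Npy neurons, those with at least 1 UMI per 10000 of Edn3 (endothelin 3, a vasoactive peptide) but not of Ptger3 (a prostaglandin E receptor) numbered 43, 44 and 26, and those with Ptger3 but not Edn3 592, 431 and 364. They are called Edn3 and Ptger3 neurons here. A further 46, 84 and 56 neurons held both and entered neither group, so most neurons with Edn3 were left out of this comparison. Gnas had 180, 104 and 108 UMIs per 10000 in Edn3 neurons, against 112, 83.5 and 87.6 in Ptger3 neurons, higher in 3 of 3 libraries by log2 0.65 ± 0.15 (adjusted p = 6.2e-04, edgeR). Snrpn had 9.53, 10.6 and 10.2 in Edn3 neurons, against 9.12, 8.07 and 7.84, and was higher by log2 0.50 ± 0.10 (adjusted p = 3.1e-04, edgeR). The level ratios of Snrpn were 1.04 to 1.31 over the libraries, all below the fitted fold. Fitted folds carry TMM scaling factors, which levels per 10000 do not, and the part of scaling in the Snrpn call was not tested. Edn3 neurons were deeper in each library, with median depths of 85640, 43959 and 78970.5 UMIs against 56999.5, 37190 and 57125.5, and over single neurons the levels of Gnas and Snrpn went with depth, as given below. The part of depth in both results was not tested.

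Peg3 had 1.19, 2.27 and 2.35 UMIs per 10000 in Edn3 neurons, against 2.29, 3.45 and 3.99 in Ptger3 neurons, and fell by 0.55 (SE 0.090, adjusted p = 9.8e-06, edgeR). Over single neurons Peg3 went against depth, as given below, and the part of depth in its fall was not tested. Impact had 1.39, 1.25 and 1.32 against 1.92, 1.63 and 1.95, and fell by 0.25 (SE 0.090, adjusted p = 0.037, edgeR). The level ratios were 0.52 to 0.659 for Peg3 and 0.677 to 0.768 for Impact, larger falls than the fitted ones in each library. Thus 2 of 6 members tested rose and 2 fell, where 22.4% of all 12105 genes passed, 13.9% higher and 8.52% lower. Ndn had 6.94, 4.25 and 3.61 UMIs per 10000 in Edn3 neurons, against 7.1, 4.69 and 5.15, and did not pass.

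Nnat gave opposite directions by library: 1.82, 1.41 and 2.08 UMIs per 10000 in Edn3 neurons, against 2.68, 1.94 and 1.56 in Ptger3 neurons, with no call overall (log2 0.01 ± 0.24).

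The neurons with both genes differed from Edn3 neurons in Snrpn. They had 8.90, 6.88 and 6.16 UMIs per 10000 of Snrpn in the mixed, anterior and posterior libraries, below both Edn3 and Ptger3 neurons of the same library. Their Gnas, at 171, 132 and 126, was above Ptger3 neurons in each library. When they were added to the Edn3 group, a comparison chosen after their levels had been seen, Gnas still rose (log2 0.58, adjusted p = 1.7e-05, edgeR) and Peg3 still fell (-0.27, adjusted p = 0.013, edgeR). Snrpn (0.020, adjusted p = 0.90, edgeR) and Impact (-0.057, adjusted p = 0.65, edgeR) no longer passed, and Nnat fell by 0.29 (adjusted p = 0.017, edgeR).

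Without the block edgeR called 0 of 6 members (1 at an unadjusted p under 0.05), and 3 genes passed over all, against 2709 with it. DESeq2 with the block called 3 members, where 1585 of 12105 genes passed. Without the anterior library, Gnas (0.72), Snrpn (0.44) and Impact (-0.29) no longer passed and Peg3 was the 1 call left. Impact was also lost without the mixed (-0.23) and without the posterior library (-0.22). Nnat passed without the posterior library, at -0.31. With a limit of 2 UMIs per 10000 for Edn3 and Ptger3, 2 members passed, where 2141 of all 10889 genes did. When any UMI counted 0 of 7 members passed (1 at an unadjusted p under 0.05). Few genes of any kind passed there, 40 of 12487, so this loss is not particular to the members. Only 9 mixed neurons then had Edn3 alone, under the 10 asked for, and the fit held the anterior and posterior libraries.

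Anterior and posterior neurons could be compared only as 1 library each, with no replicate check and no p, and region, library and age cannot be told apart. Nnat had 2.17 UMIs per 10000 in anterior and 1.59 in posterior neurons, a ratio of 1.37 (exact 95% interval 1.33 to 1.40, counting error only). Gnas was 1.16 times, Ndn 1.07 times, Snrpn 0.975 times, Peg3 0.903 times and Impact 0.85 times as high in anterior as in posterior neurons. Of the 6 members that reached 10 CPM (UMIs per 1000000), 0 differed by more than 1.5-fold, where 1.65% of 8244 genes did, 0.218% higher in anterior and 1.43% higher in posterior neurons. The median log2 ratio over all genes was -0.08, and 0.03 with TMM scaling, which also gave Nnat 0.56 and turned the sign of Snrpn (0.07 in place of -0.04). Set against these medians, Nnat was above and Impact (-0.23, and -0.13 with TMM) below the middle of all genes under both scalings.

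The anterior excess of Nnat was smaller within subtypes, with log2 ratios of 0.36 in Npy-high and 0.19 in Npy-low Ddah1 neurons, against 0.45 over all neurons. That of Gnas was 0.06 within each subtype, against 0.21 over all neurons. Npy-low Ddah1 neurons, in which both genes were lower, made up 437 of 1447 posterior neurons and 104 of 1315 anterior neurons. The part of these subtype shares in the differences between the 2 libraries was not tested. Dlk1 had 31 anterior and 620 posterior UMIs, under the 10 CPM asked for, and 31 and 41 without the Prph-poor neurons.

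Over single neurons with enough Prph (1958, 1302 and 1372 in the mixed, anterior and posterior libraries), the members went with different genes. These correlations are descriptions: the cells share a library, and depth moves with several members. Gnas went with Ddc, the decarboxylase of monoamine synthesis (Pearson r of 0.52, 0.64 and 0.58) and with the peptide Cartpt (0.52, 0.47 and 0.52), and against Crip1 (-0.37, -0.45 and -0.38). Nnat went weakly with Stmn1, a regulator of microtubules (0.32, 0.29 and 0.26), Tubb5 (0.35, 0.29 and 0.25) and Basp1, a growth cone protein (0.26, 0.26 and 0.25), and against the surface protein Thy1 (-0.32, -0.28 and -0.27).

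Peg3 went with Ank2, a membrane scaffold protein (0.54, 0.59 and 0.65), Kif1b, a transport motor (0.56, 0.56 and 0.57), and Meg3, a maternally expressed imprinted RNA (0.53, 0.54 and 0.58). It went against Cox4i1, a subunit of cytochrome c oxidase (-0.57, -0.54 and -0.63). Ndn went with the tubulin Tubb2a (0.42, 0.57 and 0.64). Snrpn went with the ribosomal protein gene Rpl3 (0.65, 0.77 and 0.84) and against Dst (-0.48, -0.70 and -0.72). Impact went weakly with Map1b (0.30, 0.33 and 0.41).

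Over all neurons, Snrpn went with the UMI count of the cell (r of 0.43, 0.36 and 0.58) and so did Gnas (0.49, 0.15 and 0.23), while r was 0.0045, -0.012 and 0.050 for Nnat. Peg3 went against it, with r of -0.33, -0.17 and -0.086. For Impact r was -0.089, -0.10 and -0.0059, and for Ndn 0.15, 0.034 and 0.083. Among the 6 widely found members, pairwise r lay between -0.31 (Peg3 with Snrpn, anterior) and 0.46 (Gnas with Ndn, posterior).

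Across 40 sums of cell groups by library, over 9608 genes, the pattern most like Snrpn was that of Nrsn1 (r = 0.97). The closest to Ndn was Aplp1 (0.91), to Impact Synpr (0.89), to Nnat Ywhae (0.89) and to Peg3 Hand2 (0.89). The sums share libraries and many are neuron groups, so the likeness is a description.

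A further 45 imprinted genes were listed for comparison. The highest of them in neurons were Meg3, at 12.0, 7.78 and 11.5 UMIs per 10000 in the mixed, anterior and posterior libraries, and Nap1l5, a nucleosome assembly protein relative, at 9.22, 7.36 and 7.86. Cd81, Ube3a, Inpp5f and Commd1 lay between 0.974 and 2.57. Against glia, 13 of 30 tested rose in neurons, 9 fell and 8 did not pass, with a median log2 fold change of 0.66. Nap1l5 (log2 4.09 ± 0.27) and Usp29 (2.64 ± 0.39), a neighbour of Peg3, rose most, and Gatm (-3.42 ± 0.21), which makes a creatine precursor, and Peg10 (-4.45 ± 0.45) fell most.

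Of 30 of these genes tested against fibroblasts, 14 rose in neurons, 5 fell and 11 did not pass. Usp29 had 0 UMIs in all fibroblasts and 6731 in neurons, at least 18.4-fold higher against a floor of 3 UMIs over the group, and Nap1l5 rose by log2 4.89 ± 0.24. Sgce fell by 3.38 (SE 0.21) and Peg10 by 2.28 (SE 0.76, adjusted p = 0.014, edgeR). Against macrophages 14 of 28 rose and 2 fell, Gatm by 2.54 and Cd81 by 1.20 on the log2 scale. Usp29 and Mirg, both at 0 in macrophages, were at least 5.29-fold and 3.64-fold higher in neurons. Against chromaffin-like cells 5 of 30 rose and 8 fell, Kcnk9 by 9.62 (SE 0.61) and Peg10 by 5.68 (SE 0.69). Peg10 had 7, 19 and 0 UMIs in mixed, anterior and posterior chromaffin-like cells, against 0.0143 UMIs per 10000 in posterior neurons, so the fall did not show in the posterior library. Gatm rose by 3.09 (SE 1.10) and Mcts2 by 2.20 (SE 0.64). These rises rested on 1, 0 and 0 Gatm UMIs and 1, 2 and 1 Mcts2 UMIs in chromaffin-like cells of the 3 libraries.

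In Npy-low Ddah1 neurons 6 of these 30 genes rose, 8 fell and 16 did not pass. Mkrn3 fell by 2.18 (SE 0.22) and Slc22a18 by 1.42 (SE 0.25), while Sfmbt2 (log2 2.63 ± 0.36) and Rasgrf1 (2.53 ± 0.39) rose on at most 39 UMIs a library. In Edn3 neurons 2 of 26 rose and 5 fell, where 22.4% of all genes passed. Meg3 fell, with 7.05, 6.03 and 5.61 UMIs per 10000 in Edn3 neurons, against 13.1, 11.1 and 16.1 in Ptger3 neurons (log2 -0.87 ± 0.11, adjusted p = 9.6e-08, edgeR). The antisense transcript Kcnq1ot1 fell by 0.92 (SE 0.12), and Mcts2 (0.35 ± 0.12) and Blcap (0.31 ± 0.11) rose. Of 23 such genes with at least 10 CPM, 1 differed by more than 1.5-fold between anterior and posterior neurons, and it was higher in posterior neurons.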

How the data were processed

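The 3 matrices of UMI counts were used as deposited by the authors: raw whole-number counts per gene and barcode. Cell Ranger 3.1.0 (mixed) and 6.1.2 (the regional libraries) made them, per the file headers. The submitters' processing notes name Cell Ranger 7.1.0, Seurat 4.4.2 and mm10. Annotations differed, so fits used the 30406 genes the matrices share.

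Members, lists, gates and tests were chosen with earlier results of these data known. The neuron gate uses Snap25, Prph, Stmn2 and depth, and the subtype gates Npy, Ddah1, Edn3 and Ptger3; no member enters a gate. Other cells had at least 1000 UMIs, 500 genes, at most 20% mitochondrial UMIs and at least 3 markers of a class summing to 5 UMIs per 10000. Scrublet in scanpy 1.11.5 called 7, 3 and 0 doublets, too few for it to have worked, so doublets were not removed from the main results. The alternative with doublets removed left out barcodes that were called or had the top 3% of scores in their library. These numbered 89, 68 and 100, of which 87, 53 and 51 were neurons, and they are not identified doublets.

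Counts were summed by library and cell group (3 libraries against 3) and tested with edgeR 4.0.16 (R 4.3.3; TMM, filterByExpr, robust quasi-likelihood fit) with the library as a block, since both groups of a pair come from the same pooled mice. DESeq2 1.42.0 was an alternative. The scripts were tested on simulated data. Changes of 1 on the log2 scale were recovered in 13.0% of genes against chromaffin-like cells, the lowest share, and 14.1% against macrophages. In Npy-low Ddah1 neurons, the highest share, it was 82.5%. Changes of 2 were recovered in 39.1%, 68.1% and 98.0%. A gene that did not pass may therefore still differ, above all against chromaffin-like cells and macrophages. No label says that the libraries repeat a condition, so p-values apply to these libraries alone. edgeR draws the spread of each gene toward that of all genes. A p-value therefore does not measure the spread of its gene between the 3 libraries alone, and very small ones rest on that pooling. The neuron to chromaffin-like comparison, the removal of neurons with little Prph and the addition of neurons with both Edn3 and Ptger3 were added after seeing the data. Named genes were all members and, of the others, the 6 highest in neurons and the 2 highest and 2 lowest called folds per test. Results for some of these genes are not reported here.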

Additional observations from a re-analysis of the deposited data

Results flagged for a closer look

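Nnat differed in direction between libraries in the comparison of Edn3 with Ptger3 Npy neurons. The ratio of Edn3 to Ptger3 neurons was 0.679 in the mixed and 0.725 in the anterior library but 1.33 in the posterior library, each with a counting interval that leaves out 1. The difference between libraries was not tested, since each library stands alone, and the cells behind it number 43, 44 and 26 Edn3 neurons.

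Signals above the neuron level of the same library appeared in cell groups that entered no test. Nnat had 14.5 UMIs per 10000 in epithelial cells of the posterior library, found in 57 of 69 cells, which is above the 1.59 of posterior neurons. Igf2 had 0.794 in the same cells, in 23 of 69. H19 had 5.84 in mixed endothelial cells, where 31 of 49 UMIs lay in 1 of 22 cells.

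Cdkn1c had 7.16 UMIs per 10000 in mixed mesothelial cells, where 65 of 92 UMIs lay in 1 of 17 cells, and 4.41 in 6 anterior mesothelial cells. It had 1.43 and 1.55 in mixed and anterior endothelial cells, and 0.678 and 0.41 in mixed and posterior smooth muscle cells or pericytes. Peg3 had 3.1 in mixed endothelial cells, from 26 UMIs in 9 of 22 cells, against 1.96 in mixed neurons.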

How the results depend on the processing

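The counts of members called against glia (8), fibroblasts (7) and macrophages (7) stayed within 1.5 times under all alternatives run. Without the library block edgeR called 0 members in Npy-low Ddah1 against Npy-high neurons (3 of 8 at an unadjusted p under 0.05) and 0 in Edn3 against Ptger3 neurons (1 of 6), while DESeq2 with the block called 4 and 3. Edn3 calls numbered 2 at a limit of 2 UMIs per 10000, 0 with any UMI, where the mixed library dropped out for too few cells (1 of 7 at an unadjusted p under 0.05), 3 with neurons of both genes added to the Edn3 group, and 1 to 4 with a library left out. Over all genes, 2141 of 10889 passed at the limit of 2, 40 of 12487 with any UMI and 1679 of 12251 with neurons of both genes added. Against chromaffin-like cells 2 calls were left with no limit on neuron genes and 2 to 4 with a library left out. With each neuron weighted equally 1 member (Dlk1) passed 1.5-fold between anterior and posterior neurons, and 3 members reached 50% of neurons at 2000 UMIs. The cause was not tested. Depth limits what scarce members can show in other cells: a count of 0 over all macrophages allows up to 0.0511 UMIs per 10000, above the neuron level of Cdkn1c in every library. Without the posterior library Dlk1 had 0 UMIs in glia and fibroblasts and Nnat 0 in macrophages, and no fold is given.

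Signs turned as follows. With a library left out, Peg3 against chromaffin-like cells from -0.42 to 0.24 (0.023 without the anterior library), Impact in Npy-low Ddah1 neurons from -0.013 to 0.046 and Ndn in Edn3 neurons from -0.084 to 0.12. In Npy-low Ddah1 neurons Dlk1 was 0.21 without Prph-poor neurons and Impact -0.0012 unfiltered. Against chromaffin-like cells Gnas was 0.019 with no limit on neuron genes. In Edn3 neurons Nnat was -0.29 with neurons of both genes added, -0.74 at the limit of 2, -0.28 at 0.5, -0.0044 with doublets removed, -0.027 unfiltered, -0.027 without the block and -0.012 in deeper neurons, and ran from -0.31 (without the posterior library) to 0.24 with a library left out. Ndn turned to 0.035 without the block, 0.041 in DESeq2, 0.032 with doublets removed and 0.0076 without neurons of other markers.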
